A study of Mus musculus with 9 samples.

Results

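Ddc, Ftcd, Gpt, Azin2, Folh1 and Ahcyl are genes of amino acid and folate metabolism that appear in the kidney gene tables of a study on aging and 3-hydroxybutyrate (3HB), a ketone body. They were taken by symbol from 2 deposited tables that together hold 489 distinct genes, and all 6 were found. Ddc, Ftcd, Gpt, Folh1 and Ahcyl stand in the table of 389 genes called by the authors between young and old mice, and Azin2 stands in the table of 113 genes called between 3HB-treated and old mice. RNA was sequenced from 9 kidneys of male ICR mice, an outbred strain. The young group held 3 untreated mice of 2 months, the old group 3 untreated mice of 20 months, and the 3HB group 3 mice of 20 months whose drinking water had carried 3HB-Na (1 g/L) since they were 11 months old. The values are normalized read abundances per gene, given by the authors to 2 decimals. Library depth is unknown, since the tables hold no counts. Each table holds called genes only, so the contrast that chose a gene is described here without a test.

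The proximal tubule reabsorbs filtered amino acids, peptides and folate, and its cells rebuild or break down much of what they take up. Ddc (aromatic L-amino acid decarboxylase) makes dopamine from L-DOPA in this segment. Folh1 (glutamate carboxypeptidase II) is a membrane enzyme that trims glutamates from polyglutamyl folate. Ftcd carries the last steps of histidine breakdown and hands the released one-carbon unit to tetrahydrofolate. Gpt is the cytosolic alanine aminotransferase, which exchanges an amino group between alanine and glutamate. Azin2 (antizyme inhibitor 2) binds antizyme, the protein that shuts down ornithine decarboxylase and polyamine uptake. Ahcyl is named for S-adenosylhomocysteine hydrolase, Ahcy, the enzyme that clears the product of methylation reactions.

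Old mouse 3 and 3HB mouse 2 stood apart in some of these genes, and results that rest on them are given with and without them, a choice made after their values were seen. Each was the highest of its group in 92 of the 389 genes of the young and old table (23.7%), and each reached at least 1.5 times the mean of the other mice of its group in 49 genes (12.6%). Of the marker genes checked, 2 of 7 for the proximal tubule were in the tables (Lrp2 and Keg1). Their summed value was 1144.83 to 1753.24 in young, 792.19 to 1051.75 in old and 1000.89 to 1445.4 in 3HB mice. The sum was mostly Keg1, which was at 1076.24 to 1636.64, 704.33 to 962.33 and 857.89 to 1297.32. Lrp2 did not follow it, at 68.59 to 116.6 in young, 87.86 to 105.3 in old and 143 to 154.52 in 3HB mice, where it was above both other groups. Of the immune markers 2 of 6 were present (Cd79a and Jchain), summing to 1.03 to 12.49, 61.13 to 320.94 and 203.34 to 220.69. None of 4 liver, 6 other nephron or 6 skeletal muscle markers was in either table, which hold called genes only. Lrp2 was called between 3HB and old mice, and Keg1, Cd79a and Jchain between young and old mice. The shifts of these markers on those contrasts are what placed them in the tables, so they are a description. Whether these shifts take part in the values given here was not tested. In whole kidney, fewer cells of a type and less RNA per cell cannot be told apart.

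Sequences are shown for Ddc and Ahcyl, where they bear on what the values count, and for Ftcd, which had the largest difference with age of the 6 after Ahcyl. Ddc lies on the minus strand of chr11:11814101-11898144 (GRCm38, the build named in the submitters' processing notes) and has 2 annotated starts, which one value per gene cannot separate. The 250 bases before each start (RefSeq, GRCm38.p6) follow, with the minus strand written 5′ to 3′, together with those of Ftcd, on the plus strand of chr10:76575648-76590338. Capitals mark GTTAAT, the core letters of hepatocyte nuclear factor 1 sites, and TATAAA, the TATA box, each searched on both strands (ATTAAC and TTTATA in reverse).
Ddc, distal start, chr11:11898145-11898394: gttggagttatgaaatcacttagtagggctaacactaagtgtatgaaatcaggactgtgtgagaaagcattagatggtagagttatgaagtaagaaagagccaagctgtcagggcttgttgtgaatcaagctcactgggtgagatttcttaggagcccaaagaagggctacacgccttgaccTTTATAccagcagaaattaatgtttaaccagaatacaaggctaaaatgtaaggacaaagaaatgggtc
Ddc, proximal start, chr11:11890409-11890658: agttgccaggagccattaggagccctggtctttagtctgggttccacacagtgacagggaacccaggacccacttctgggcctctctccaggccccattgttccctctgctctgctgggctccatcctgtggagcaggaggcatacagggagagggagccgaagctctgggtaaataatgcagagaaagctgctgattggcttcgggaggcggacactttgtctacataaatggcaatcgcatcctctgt
Ftcd, chr10:76575398-76575647: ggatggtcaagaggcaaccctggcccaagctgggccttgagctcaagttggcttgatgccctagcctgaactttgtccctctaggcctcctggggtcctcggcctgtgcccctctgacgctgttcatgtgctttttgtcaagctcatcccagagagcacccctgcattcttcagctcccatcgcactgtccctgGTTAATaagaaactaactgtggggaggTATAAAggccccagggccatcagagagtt
The Ftcd window held GTTAAT with its first base at -56 and TATAAA at -29 from the start. The distal Ddc window held TATAAA in reverse at -68, and the proximal Ddc window held neither. Of the windows not printed, that of Folh1 held GTTAAT at -248 and that of Ahcyl held TATAAA at -192. Over 32851 promoter windows of this length, 6.43% held GTTAAT and 12.4% held TATAAA on either strand. These are matches of letters only.

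Ahcyl (ENSMUSG00000048087) lies on the minus strand of chr16:46152985-46155077. GENCODE M21 lists this identifier as Gm4737, a protein-coding retrogene with 1 exon. Retrogenes are copies of a spliced messenger RNA put back into the genome, and the parent is Ahcy on chr2:155059310-155074497. Over 2083 aligned bases, 99.5% of the Ahcyl transcript, the copies were 99.7% identical with 6 single-base differences and 0 gaps. Of the 6, 4 lay in the coding part (positions 66 to 1364) and 2 in the 3′ UTR (T1672A and T1676G). Each is written with the base in Ahcyl, its position counted from the 5′ end of the Ahcyl transcript, and the base in Ahcy. The coding differences are printed within 29 bases of transcript sequence, read from the genome build GRCm38, with the differing base in capitals.
Ahcyl, T524C: ggcatccgaggtatTtctgaggagaccac
Ahcy, T524C: ggcatccgaggtatCtctgaggagaccac
Ahcyl, A539G: tctgaggagaccacAactggggtccacaa
Ahcy, A539G: tctgaggagaccacGactggggtccacaa
Ahcyl, T1115C: aacctgggttgtgcTatgggacaccccag
Ahcy, T1115C: aacctgggttgtgcCatgggacaccccag
Ahcyl, T1133C: ggacaccccagcttTgtgatgagcaactc
Ahcy, T1133C: ggacaccccagcttCgtgatgagcaactc
None of the 4 altered the amino acid, and the coded proteins of 432 residues had 0 differences. Of 1944 windows of 150 bases in the Ahcyl transcript, the stated read length, 1447 (74.4%) occurred unchanged in Ahcy, and the longest run without a difference was 575 bases. How the authors assigned reads that match both copies is not given in the sources used here.

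**Figure D1:**
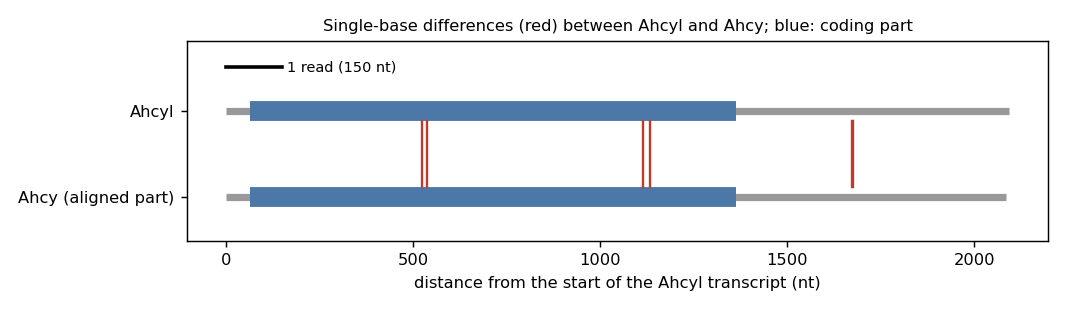
Map of the Ahcyl transcript and the aligned part of Ahcy, drawn to scale along the distance in nucleotides from the start of the Ahcyl transcript. Blue boxes are coding, grey lines untranslated, red lines the 6 single-base differences and the black bar a read of 150 bases. A reader should see long stretches where a read fits both copies, the longest of 575 bases.

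Comparison of old with young kidneys asked what aging altered. Among the 6 genes, Gpt was higher and Ftcd and Ahcyl were lower in every old mouse than in every young mouse, while Ddc and Folh1 were higher on average with overlapping groups. Thus 3 of 6 did not overlap, and 5 of 6 without old mouse 2, when Ddc and Folh1 joined them. The table that holds 5 of them was called on this contrast and 92.5% of its 389 genes did not overlap, so nothing is read from the count. For Azin2, from the other table, the comparable share was 19.5% of 113 genes. Of the 389 genes, 69.7% were higher in old mice on average, as were 3 of the 5.

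**Figure D2:**
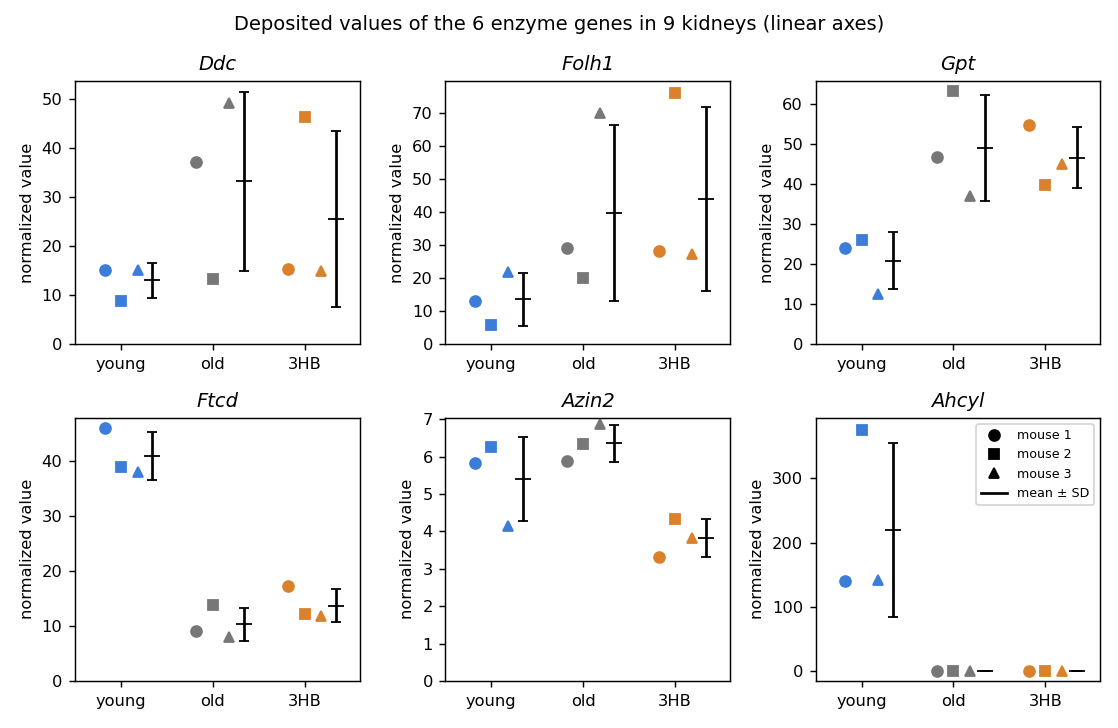
Deposited normalized values (y axes, linear, from 0, or from below 0 for Ahcyl) of the 6 genes in each mouse of the young, old and 3HB groups. Symbols give the mouse number and black bars the mean ± SD of 3 mice. Ftcd, Gpt and Ahcyl separate young mice from the other groups, Azin2 separates 3HB from old mice, and old mouse 3 and 3HB mouse 2 are the highest of their groups in Ddc and Folh1, with old mouse 1 also high in Ddc.

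Ddc (ENSMUSG00000020182) was given at 15.13, 8.85 and 15.09 in young, 37.1, 13.29 and 49.22 in old, and 15.33, 46.35 and 15.01 in 3HB mice 1 to 3. The group means were 13.0 ± 3.61, 33.2 ± 18.3 and 25.6 ± 18 (SD, n = 3 each). Old mouse 2 lay within the young range, and only 3HB mouse 2 lay well above the young mice. The difference of log2(value + 1), the scale of all log2 differences of single genes here, was 1.14 ± 0.60 (SE) between old and young. Between 3HB and old it was -0.38 ± 0.75 (two-sided exact permutation p = 0.9), and between 3HB and young 0.76 ± 0.57 (exact p = 0.3). With 3 mice against 3, the smallest p this test can give is 0.1. Without old mouse 3 and 3HB mouse 2 the differences were 0.77, -0.53 and 0.24, in the same order, and without 3HB mouse 2 the difference between 3HB and old was -0.90. The latter was -0.01 without old mouse 3 alone and -0.92 without old mouse 2 alone.

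The order of the Ddc group means was young, 3HB, old, and no neighbours in it were separated beyond their spread. Variation within groups was wide, since the highest old mouse had 3.70 times the value of the lowest and the highest 3HB mouse 3.09 times. Among young mice that ratio was 1.71.

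Folh1 (ENSMUSG00000001773, chr7:86718977-86775943, minus strand) was given at 13.14, 5.69 and 21.80 in young, 29.25, 20.08 and 69.91 in old, and 28.21, 76.12 and 27.40 in 3HB mice. Means were 13.5 ± 8.06, 39.7 ± 26.5 and 43.9 ± 27.9 (SD, n = 3 each). Old mouse 2 was just below young mouse 3, and every 3HB mouse was above every young mouse. The log2 difference was 1.46 ± 0.73 (SE) between old and young, and 1.63 ± 0.70 between 3HB and young (exact permutation p = 0.1, the smallest possible). Between 3HB and old it was 0.17 ± 0.70 (exact permutation p = 0.7). Without old mouse 3 and 3HB mouse 2 the differences were 0.97, 1.16 and 0.19, in the same order. Without 3HB mouse 2 alone the difference between 3HB and old was -0.31, and without old mouse 3 alone it was 0.66, so its direction turned on single mice.

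Ddc and Folh1 shared their highest mice. Old mouse 3 had 1.95 times the mean of the other old mice for Ddc and 2.83 times for Folh1, and 3HB mouse 2 had 3.06 and 2.74 times that of the other 3HB mice. For Ddc, old mouse 1 was nearer to old mouse 3 than to old mouse 2. Gpt and Ftcd did not show this, with 0.67 and 0.71 times in old mouse 3 and 0.80 and 0.84 times in 3HB mouse 2. For Azin2 the ratios were 1.12 and 1.21. Lrp2, the endocytic receptor megalin of the proximal tubule, was at 1.19 and 1.06 times and Keg1 at 0.95 and 0.94 times in these mice. Of the immune markers, Cd79a was at 0.19 and 0.66 times and Jchain at 0.20 and 0.97 times. Of genes outside these lists, singled out after their values were seen, the lipoprotein gene Apoe was at 4.41 and 2.96 times and the chemokine gene Ccl7 at 2.52 and 6.44 times. The chemokine gene Ccl2 was at 1.61 and 1.28 times, with old mouse 1 (13.78) close to old mouse 3 (13.83). The part of any of these in the Ddc and Folh1 values was not tested.

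Ftcd (ENSMUSG00000001155) was given at 45.96, 39.00 and 37.97 in young, 9.03, 13.76 and 8.06 in old, and 17.25, 12.14 and 11.73 in 3HB mice. Means were 41.0 ± 4.35, 10.3 ± 3.05 and 13.7 ± 3.08 (SD, n = 3 each). The lowest young mouse was above the highest mouse of both other groups, and old and 3HB mice overlapped. The log2 difference was -1.92 ± 0.23 (SE) between old and young, the value of rank 18 by size among the 118 genes lower in old mice, where the median size was 1.06. Between 3HB and young it was -1.53 ± 0.19 (exact permutation p = 0.1, the smallest possible). Between 3HB and old it was 0.40 ± 0.27 (exact permutation p = 0.3), with 3HB mouse 1 above all old mice and the other 3HB mice below old mouse 2. No order between old and 3HB was thus resolved.

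Gpt (ENSMUSG00000022546, chr15:76695716-76699686, plus strand) was given at 24.09, 25.89 and 12.59 in young, 46.74, 63.08 and 36.91 in old, and 54.67, 39.68 and 44.99 in 3HB mice. Means were 20.9 ± 7.22, 48.9 ± 13.2 and 46.4 ± 7.60 (SD, n = 3 each). All 6 mice of 20 months were above all young mice, and the old range contained all 3HB values. The log2 difference was 1.22 ± 0.38 (SE) between old and young and 1.17 ± 0.34 between 3HB and young (exact permutation p = 0.1, the smallest possible). Between 3HB and old it was -0.05 ± 0.26 (exact permutation p = 0.9). In size the difference with age of Gpt ranked 180, that of Folh1 149 and that of Ddc 196 among the 271 genes higher in old mice, where the median was 1.58.

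Gpt and Ftcd both meet glutamate, which Gpt uses or forms and which histidine breakdown through Ftcd releases. Their ratio within a mouse, chosen after the values were seen, was 0.524, 0.664 and 0.332 in young, 5.18, 4.58 and 4.58 in old, and 3.17, 3.27 and 3.84 in 3HB mice. The means were 0.507 ± 0.167, 4.78 ± 0.343 and 3.42 ± 0.359 (SD, n = 3 each), and no groups overlapped. On the log2 scale of the ratio itself, with no 1 added to the values, it was 3.29 ± 0.30 (SE) higher in old than in young mice. Between 3HB and old mice the difference was -0.48 ± 0.10, and leaving out any mouse gave -0.57 to -0.43. A scaling of the whole library cancels in this ratio. Both genes were called for age on the same old mice, so these differences are a description with no test.

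**Figure D3:**
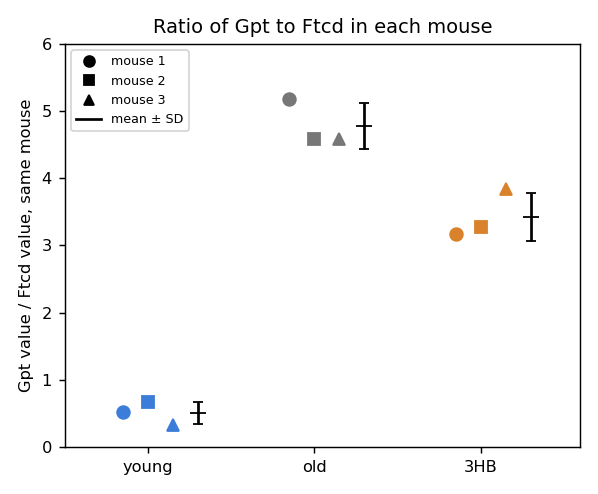
Ratio of the Gpt value to the Ftcd value in the same mouse (y axis, linear, from 0, no unit) for the young, old and 3HB groups. Symbols give the mouse number and bars the mean ± SD of 3 mice. All old mice lie above all 3HB mice, and all 3HB mice above all young mice.

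The ratio of Ddc to Folh1, also chosen after seeing the values, was 1.15, 1.56 and 0.692 in young, 1.27, 0.662 and 0.704 in old, and 0.543, 0.609 and 0.548 in 3HB mice. The 3HB mice were lowest, with a log2 difference from old mice of -0.57 ± 0.30 (SE, again with no 1 added), although old mouse 2 was close to 3HB mouse 2. Without old mouse 3 and 3HB mouse 2 it was -0.75. Old and young mice overlapped, with a difference of -0.36. These values too are a description.

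Comparison of 3HB with old kidneys asked what the treatment altered at the same age. Only Azin2 of the 6 had groups without overlap, and it was lower with 3HB. The count was 2 without old mouse 2, when Ftcd joined it, and 2 without 3HB mouse 3, when Ahcyl joined it. Azin2 stands in the table called on this contrast, where 89.4% of 113 genes did not overlap, so the value is a description. Of the 5 genes called for age, 0 were without overlap, beside 13.4% of the 389 genes there.

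Azin2 (ENSMUSG00000028789, chr4:128930233-128962442, minus strand) was given at 5.82, 6.26 and 4.13 in young, 5.88, 6.33 and 6.86 in old, and 3.31, 4.33 and 3.82 in 3HB mice. Means were 5.40 ± 1.12, 6.36 ± 0.491 and 3.82 ± 0.510 (SD, n = 3 each). Every 3HB mouse was below every old mouse, and young mouse 3 lay inside the 3HB range. The log2 difference was -0.61 ± 0.10 (SE) between 3HB and old, of rank 30 by size among the 70 genes lower with 3HB, where the median size was 0.56. Old and young mice overlapped, with a difference of 0.21 ± 0.16 (exact permutation p = 0.2), which was 0.062 without young mouse 3. So did 3HB and young mice, with -0.40 ± 0.18 (exact permutation p = 0.2). The spread was narrow, as the highest mouse had 1.52 times the lowest value in young, 1.17 times in old and 1.31 times in 3HB mice.

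Ahcyl was given at 140.99, 375.49 and 141.22 in young mice and was listed at 0 in every old mouse. The 3HB mice were listed at 0.09, 0.26 and 0. The difference between young and old mice was of rank 1 by size on the log2 scale among the 118 genes lower in old mice, and old and 3HB mice overlapped (exact permutation p = 0.4). No fold is given against a group at 0. The young mice differed among themselves, with mouse 2 at 2.66 times the lowest. Ahcy, which shares 74.4% of the windows of a read with Ahcyl, is in neither table, so its level was not used here. The value therefore counts reads given to this locus and is uncertain as a measure of its own transcript.

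Of the other members, Ddc, Gpt and Azin2 had no match of 150 bases or more to another GENCODE gene. The closest match of Ftcd was to Prdm15, 79.5% identical over 371 bases, and that of Folh1 was to Naalad2, a related peptidase, 73.6% identical over 1940 bases.

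Comparison of 3HB with young kidneys was the contrast on which no table was called, though it shares the young mice with the aging contrast. Groups did not overlap for 4 of 6 genes, with Gpt and Folh1 higher and Ftcd and Ahcyl lower in 3HB mice. Groups were without overlap in 82.3% of the 389 genes called for age and in 38.1% of the 113 genes called for 3HB. The 4 of 5 genes from the first table were thus near its background.

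**Figure D4:**
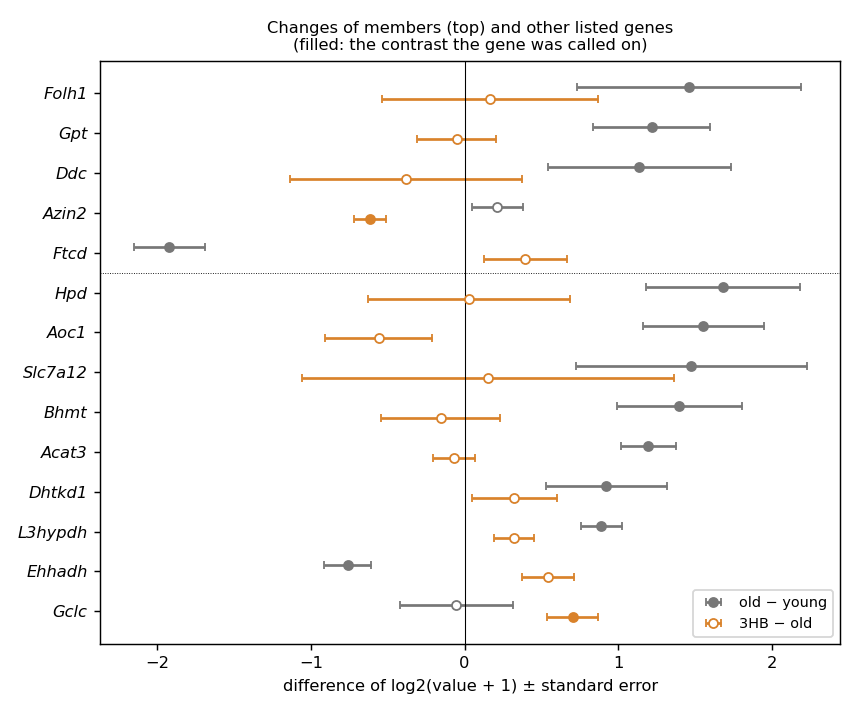
Differences of log2(value + 1) between group means (x axis) with standard errors for 5 of the 6 genes (top) and for other genes of their pathways (below). Grey is old minus young and orange 3HB minus old, and filled points mark the contrast for which the gene was called. Ahcyl is left out because old mice are listed at 0. Folh1, Gpt and Ddc lie to the right and Ftcd to the left in grey, and Azin2 has the only orange point of the 5 clear of 0 by more than 2 SE.

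Other genes of these pathways were looked up in 9 lists holding 219 distinct genes. Of these 9 were in the young and old table, 7 higher and 2 lower in old mice, 1 was in the 3HB table, and 209 were in neither. Without Ahcyl the median log2 difference of 8 listed genes, Ddc, Ftcd, Folh1 and Gpt among them, was 1.43, beside 1.14 over the 389 genes. Without old mouse 3 these medians were 1.08 and 0.99. The lists gave Ddc of 17 aromatic amine genes, Ftcd and Folh1 of 31 folate genes, Ftcd and Aoc1 of 9 histidine genes, and Ahcyl and Bhmt of 19 methionine cycle genes. They further gave Gpt of 23 transamination genes, Azin2 of 28 polyamine and arginine genes, Hpd of 46 genes of other amino acid catabolism, Folh1 of 13 brush border peptidases and Slc7a12 of 35 transporters. By the KEGG pathways in the deposited annotation, 14 genes, the 6 included, stood in an amino acid or folate pathway that holds any of the 6. Of these 12 were in the young and old table, 9 higher and 3 lower in old mice, and the median of 11 without Ahcyl was 1.20, or 0.97 without old mouse 3. Both counts of higher genes were near the 69.7% of all 389 genes.

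Hpd, the dioxygenase of tyrosine breakdown, was given at 194.47, 122.29 and 91.65 in young, 269.76, 392.97 and 691.98 in old, and 409.02, 822.66 and 231.64 in 3HB mice. Aoc1, the amine oxidase that degrades histamine and putrescine, was at 0.28, 0.91 and 1.1 in young, 6.51, 2.43 and 4.07 in old, and 2.04, 3.07 and 2.3 in 3HB mice. Bhmt, which remethylates homocysteine with betaine, was at 1.5, 0.29 and 0.31, then 3.51, 2.04 and 4.66, then 2.45, 4.59 and 1.91. All 3 were higher in every old mouse than in every young mouse, by 1.68 ± 0.50, 1.56 ± 0.39 and 1.40 ± 0.41 (SE) on the log2 scale. They were called on this contrast, where 92.5% of the 389 genes did not overlap, so this is a description. Without old mouse 3 the differences were 1.32, 1.56 and 1.20, and the groups still did not overlap.

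Slc7a12, an amino acid transporter, was at 0.66, 0.57 and 2.25 in young, 3.47, 1.93 and 12.96 in old, and 1.64, 24.11 and 2.81 in 3HB mice. It overlapped between old and young mice, with a log2 difference of 1.48 that was 0.83 without old mouse 3. Like Ddc and Folh1, Hpd, Bhmt and Slc7a12 were highest in old mouse 3 and 3HB mouse 2 within their groups. Old mouse 3 had 2.09, 1.68 and 4.80 times and 3HB mouse 2 had 2.57, 2.11 and 10.8 times the mean of the others. Aoc1 did not, at 0.91 and 1.41 times, nor did Ehhadh (1.00 and 0.72), Acat3 (1.20 and 0.88) or L3hypdh (1.13 and 1.18) reach 1.5 times. Dhtkd1 was highest in both mice, at 1.70 and 1.29 times. Of the 12 KEGG genes in that table, Ddc and Folh1 included, 4 reached 1.5 times in both mice, beside 49 of its 389 genes (12.6%). The mice were singled out after their values were seen, so nothing is read from this count.

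Of the genes found by KEGG pathway, L3hypdh, a dehydratase of hydroxyproline breakdown, was at 13.43 to 16.35 in young, 23.93 to 30.08 in old and 31.26 to 38.86 in 3HB mice. It was higher by 0.32 ± 0.13 (SE) in 3HB than in old mice on the log2 scale, without overlap. Ehhadh, a peroxisomal enzyme of fatty acid oxidation that also stands in lysine and tryptophan pathways, was at 251.93 to 360.53 in young, 166.96 to 184.61 in old and 205.38 to 295.95 in 3HB mice. Its 3HB mice were all above the old mice, by 0.54 ± 0.17, and overlapped the young. Both were called for age on these old mice, so this is a description. L3hypdh and Ehhadh were 2 of the 12 KEGG genes of the young and old table without overlap between 3HB and old mice, near the 13.4% of its 389 genes. Without old mouse 3 and 3HB mouse 2, Aoc1 (lower with 3HB) and Dhtkd1 (higher with 3HB) joined them. Fewer mice overlap less easily, and no share over the 389 genes was computed for that setting. Acat3 was at 11.71 to 16.7, 28.21 to 36.19 and 27.92 to 34.44. Dhtkd1, of lysine breakdown, was at 6.35 to 13.69, 13.61 to 24.86 and 19.59 to 26.15. Gclc, the catalytic subunit for glutathione synthesis, stands in the 3HB table at 22.35 to 53, 27.52 to 35.95 and 45.56 to 61.47.

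**Figure D5:**
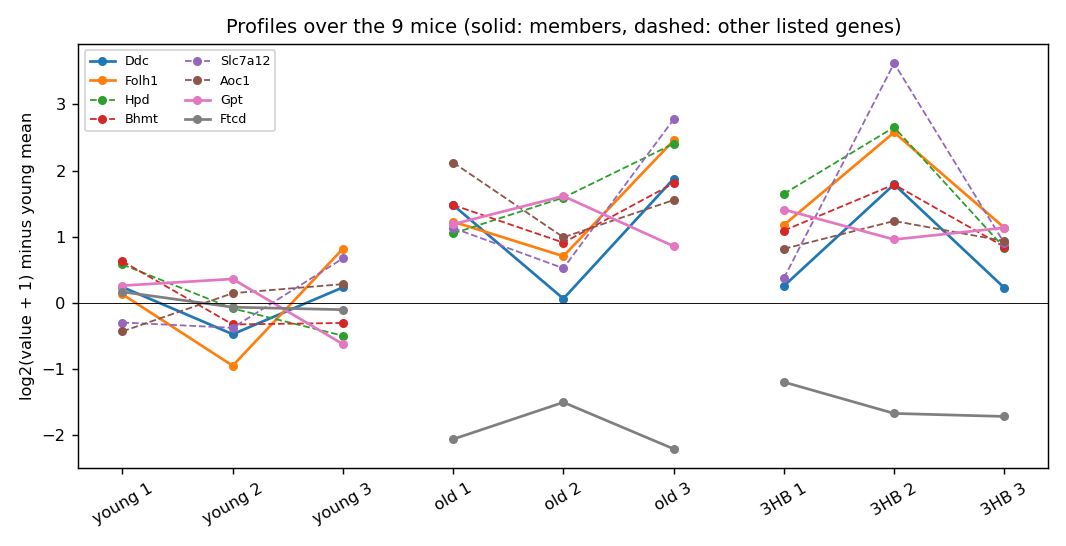
Profiles of Ddc, Folh1, Gpt and Ftcd (solid) and Hpd, Bhmt, Slc7a12 and Aoc1 (dashed), the listed genes of the young and old table except Ahcyl, over the 9 mice, as log2(value + 1) minus the mean of young mice (y axis). Lines only join the points of a gene within a group, since mice have no order. Old mouse 3 and 3HB mouse 2 reach at least 1.5 times the mean of their group's other mice for Ddc, Folh1, Hpd, Bhmt and Slc7a12 and do not for Gpt, Ftcd or Aoc1. Over the 389 genes of that table, 12.6% reached 1.5 times in both mice. The mice were singled out after their values were seen, so this is a description.

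Likeness of pattern was measured as the root mean square difference between centred log2 profiles over the 9 mice, across the genes of both tables. Closest to Ddc were Gpat3 (0.289), Ccl7 (0.297) and Iigp1 (0.381), and closest to Folh1 were Aldh1a1 (0.335), Zfp970 (0.398) and Cldn1 (0.449). Of these Gpat3, Ccl7, Aldh1a1 and Cldn1 were at least 1.5 times their group's other mice in both old mouse 3 and 3HB mouse 2. Over the other 7 mice, the nearest genes of Ddc ranked 10 (Gpat3), 19 (Ccl7) and 2 (Iigp1) of 488. Those of Folh1 ranked 14 (Aldh1a1), 8 (Zfp970) and 12 (Cldn1), so this order changed without these mice. Ftcd was closest to Scfd2 (0.276), Gm15217 (0.317) and H2-T22 (0.324). Gpt was closest to Spns3 (0.280), the unnamed gene ENSMUSG00000120464 (0.311) and Urah (0.323). Azin2 lay nearest to Rpl15-ps3 (0.110), Asb9 (0.119) and Rpl22l1 (0.120). These 3 genes were also lower in every 3HB than in every old mouse, by log2 differences of -0.58, -0.54 and -0.53 beside -0.61 for Azin2, and stand in the table called on that contrast.

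For Ahcyl the nearest genes were Rps2-ps13 (0.847), Hsd3b4 (0.851) and Atp5e (1.71). Rps2-ps13, a pseudogene of a ribosomal protein gene, was at 562.92, 537.46 and 366.66 in young mice and at 2.01 to 10.27 in all others. Hsd3b4 was at 127.22, 53.22 and 109.42 in young mice and listed at 0 in all others. Rps2-ps13 was 99.8% identical to Rps2-ps10 over 882 bases and Hsd3b4 100% identical to Gm10681 over 1610 bases, so their reads too can fit another locus. Atp5e had no such match, at 1439.21 to 2514.5 in young and 86.32 to 154.13 in the other mice. Whether the assignment of shared reads differed between the young and the other libraries was not tested.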

How the data were processed

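RNA was extracted from kidney, as the labels give it (the methods text of the study names muscle for RNA sequencing), and sequenced as paired reads of 150 bases. The authors deposited a normalized signal per gene and mouse, and whether it is TPM or FPKM is not given in the sources used here. The submitters' processing notes name CASAVA, HISAT2, StringTie and GRCm38, without versions or roles. The annotation release, and the test and threshold for calling genes, are not given in the sources used here. A general statistics statement in the study's methods names tests and a threshold without naming RNA sequencing. The tables also hold gene annotation. The 2 tables hold called genes only (389 and 113, with 13 in both), so no test across genes was run, and changes are relative to the authors' normalization.

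The 6 genes, the 9 lists and the markers were chosen with earlier results of these data known. Group means of log2(value + 1) were compared over mice by difference, SE and a two-sided exact permutation test over 20 splits. Ratios of 2 genes within a mouse were put on the log2 scale with no 1 added. Named genes were the 6, listed genes in a table, genes of the tables sharing a KEGG pathway with them, and the 3 genes of nearest profile per gene. The labels do not say more of the mice than their group, and p-values measure the spread between these samples. Transcripts were read from GENCODE M21 (GRCm38) and compared by BLAST+ 2.17.0. Promoters came from RefSeq (GRCm38.p6), where 4 of the 6 genes had windows. Python 3.11.15, numpy 2.4.6, pandas 2.3.3 and scipy 1.17.1 were used. The log2 difference was checked on simulated data of 400 genes, and the permutation and sign-flip p-values on small examples. Other calculations were not checked in this way. Alternatives were another pseudocount (0.1), medians, a minimum highest group mean of 1, a log2 limit of 1, the replicate block and leaving out mice.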

Additional observations from a re-analysis of the deposited data

How the results depend on the processing

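Of 211 values recomputed under alternatives, 206 stayed within the spread between mice (pooled SD) or within 1.5 times the count. Among them were 15 under the replicate block and 15 under the minimum group mean, which could not differ. Leaving out 1 mouse of 3 cannot move a log2 difference or log2 ratio by as much as this spread. Those values could thus not leave it, and the 206 are not read as stability. The number of the 6 genes without overlap between old and young mice was 3 and became 5 without old mouse 2, the range over mice left out being 3 to 5. Between 3HB and old mice it was 1 and became 2 without old mouse 2 or without 3HB mouse 3 (range 1 to 2), and 0 when a log2 difference of at least 1 was also required. Between 3HB and young mice it was 4 to 5. With medians the Ddc difference between 3HB and young mice was 0.021 in place of 0.76, that between 3HB and old mice -1.22 in place of -0.38, and that of Folh1 between 3HB and old mice -0.05 in place of 0.17. Leaving out a mouse gave -0.31 to 0.66 for Folh1, -0.23 to 0.15 for Gpt and -0.92 to -0.01 for Ddc between 3HB and old mice, and -0.69 to -0.54 for Azin2. It gave 0.77 to 1.68 for Ddc, 0.97 to 1.87 for Folh1, 0.91 to 1.40 for Gpt and -2.13 to -1.78 for Ftcd between old and young mice. Old mouse 3 and 3HB mouse 2 were also left out together, a choice made after seeing the data. All 15 log2 differences stayed within the spread, but those against young mice repeat leaving out 1 mouse and could not leave it. Folh1 between old and young mice went from 1.46 to 0.97, and Ddc between 3HB and young mice from 0.76 to 0.24. Matching by symbol found 10 pathway genes and by KEGG 14. Deviations of same-numbered mice had correlations of -0.24 to 0.16 over 9 pairs, 2 above 0.1. They show no clear pairing by number, but they are not independent and come from called genes, so they cannot exclude one. With the replicate block the Azin2 difference between 3HB and old mice was -0.61 ± 0.077 (SE, exact sign-flip p = 0.25, the smallest possible). A block cannot move a mean difference here, only its SE, which went from 0.73 to 0.18 for Folh1 and from 0.38 to 0.16 for Gpt between old and young mice. The tables give no depth, so no counting error can be given, and 3 mice per group limit every p to at least 0.1.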
